A study of Mus musculus with 14 samples.

Results

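The genes described here encode 8 transcription factors of effector lymphocytes: the T-box factors T-bet (*Tbx21*) and Eomes (*Eomes*), Blimp-1 (*Prdm1*), *Zeb2*, *Id2*, *Bhlhe40*, *Hopx*, and *Bhlha15* (Mist1). They were chosen by name, with earlier results of these data known. All 8 had a value in each of the 14 samples and passed the filter on low values in both experiments. That filter used the mean over both genotypes. *Bhlha15* in the first experiment and *Prdm1* in the second passed it only through the mutant samples. A total of 15107 genes were tested in the first experiment and 14000 in the second. The data are RNA-Seq of C57BL/6 CD4+ T cells activated for 3 days through CD3 and CD28 without polarizing cytokines (Th0). They are labelled as spleen but by the study's methods came from spleen and lymph nodes together. Those methods describe a sort of naive cells, culture with IL-2, and a second sort of living cells after 3 days. For the restimulated cells the paper refers to an earlier study and does not state whether these steps were the same. In the first experiment, 4 HDAC1cKO-HDAC2HET samples (HDAC1f/f HDAC2f/+ x CD4cre) were compared with 4 WT samples. In the second, 3 HDAC1cKO samples (HDAC1f/f CD4-cre+, with both *Hdac2* alleles intact) were compared with 3 WT samples, all restimulated for 12 hours with anti-CD3. *Cd4*-Cre deletes floxed alleles from the stage of thymocytes that express CD4 onward, so deletion preceded the activation of the cells. The labels gave neither age nor sex nor whether each sample came from 1 mouse, so the p-values measure the spread between these samples.

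T-bet and Eomes are related activators that bind T-box sites and drive genes of type 1 and cytotoxic lymphocytes, with Eomes more typical of CD8+ T cells and NK cells. Blimp-1 is a zinc finger repressor that opposes Bcl6 in effector T cells and in plasma cells, and Zeb2 is a repressor of terminal effector cells that binds E-boxes of the kind CACCT. Id2 has no DNA-binding region and holds E proteins away from their E-boxes, whereas Bhlhe40 and Bhlha15 bind E-boxes themselves. HDAC1 and HDAC2 remove acetyl groups from histones as the catalytic subunits of corepressor complexes.

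*Hdac1* checked the labels: its level was between 76.3 and 79.6 FPKM (fragments scaled to transcript length and to the mapped fragments of the library) in WT and between 6.65 and 10.7 in HDAC1cKO-HDAC2HET samples. In the second experiment it was between 72.3 and 81.1 in WT and between 8.52 and 12.1 in HDAC1cKO samples. *Hdac2* was between 58.2 and 60.3 in WT and between 34.0 and 37.0 in HDAC1cKO-HDAC2HET samples, and its ranges in the second experiment overlapped. The 9 T cell markers summed to between 1890 and 2020 FPKM in WT and between 1630 and 1670 in HDAC1cKO-HDAC2HET samples. The sum joins opposite moves: the mean of *Cd2* rose from 295.6 to 413.9, and the means of all the others fell, such as *Cd3d* from 165.5 to 105.0. The depth of a library, estimated from the Cufflinks bounds, was between 20400000 and 48400000 fragments. *Xist*, which female cells express, was detected in all 8 samples of the first experiment, but at unlike levels. It was between 58.9 and 65.2 FPKM in WT and between 26.0 and 33.7 in HDAC1cKO-HDAC2HET samples. Whether the lower mutant values come from the sex of the mice or from *Xist* itself was not tested. In the second experiment *Xist* was at 42.9 and 33.2 in WT restimulated replicates 1 and 3, and below 0.0436 in WT restimulated replicate 2 and all 3 HDAC1cKO samples. Genotype and sex therefore cannot be told apart in the second experiment except through a single WT sample. A fit with sex as a covariate there compares the HDAC1cKO samples with WT restimulated replicate 2 alone.

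The promoter windows of *Tbx21*, *Prdm1*, and *Bhlha15* are shown because these genes rose in the first experiment and are the members whose window holds the E-box CAGGTG. Each is the 250 bases before the RefSeq start on GRCm38.p6 (mm10), 5′ to 3′ on the gene's strand, and capitals mark every E-box CANNTG. The windows are chr11:97115332-97115581 on the minus strand, chr10:44458749-44458998 on the minus strand, and chr5:144190036-144190285 on the plus strand. None overlaps an exon of the GENCODE annotation.
Tbx21: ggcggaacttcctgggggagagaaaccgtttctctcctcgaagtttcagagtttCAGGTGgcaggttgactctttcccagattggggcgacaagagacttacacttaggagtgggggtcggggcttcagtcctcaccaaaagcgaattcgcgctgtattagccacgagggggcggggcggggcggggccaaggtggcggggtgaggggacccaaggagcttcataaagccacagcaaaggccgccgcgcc
Prdm1: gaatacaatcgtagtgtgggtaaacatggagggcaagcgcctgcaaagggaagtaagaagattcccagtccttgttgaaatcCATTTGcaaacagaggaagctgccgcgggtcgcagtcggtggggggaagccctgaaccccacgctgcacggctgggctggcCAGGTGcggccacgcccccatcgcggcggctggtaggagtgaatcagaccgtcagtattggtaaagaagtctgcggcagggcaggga
Bhlha15: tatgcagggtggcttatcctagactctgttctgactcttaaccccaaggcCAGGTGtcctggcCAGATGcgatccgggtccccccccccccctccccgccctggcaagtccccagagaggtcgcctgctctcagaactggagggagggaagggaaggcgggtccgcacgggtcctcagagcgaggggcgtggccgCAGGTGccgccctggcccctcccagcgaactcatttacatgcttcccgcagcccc
The *Tbx21* window holds 1 E-box, that of *Prdm1* holds 2, and that of *Bhlha15* holds 3. Windows were found for 7 of the 8 genes, 11 windows in all, and *Bhlhe40* had no entry. On both strands, CANNTG occurs in 66.2% of all 32851 windows and CAGGTG in 17.2%. The Zeb-type motif CACCT, which lies within CAGGTG read on the other strand, occurs in 46.0% of windows. These matches describe the sequence and do not show binding.

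The first comparison asked how the factors respond when HDAC1 is lost and 1 *Hdac2* allele remains. Of the 8 genes, 6 were at least 2-fold higher in HDAC1cKO-HDAC2HET than in WT samples at an adjusted p of at most 0.05 (limma, Benjamini-Hochberg), against 5.6% of all genes tested. *Bhlha15*, which is among them, was tested only because its mutant samples lifted it over the filter of 0.1 FPKM (WT mean 0.0314). *Id2* was the 1 gene at least 2-fold lower, against 5.59% of all genes. All 8 passed the adjusted p alone, as did 51.8% of all genes, and *Bhlhe40* passed it with a change under 2-fold. The WT and mutant samples did not overlap for any of the 8: 7 lay wholly higher, against 23.4% of all genes, and 1 wholly lower, against 26.9%. The median log2 fold change of the 8 was 1.64, and that of all genes was -0.04. These genes were chosen with earlier results of these data known, so the shares and medians only describe them. They do not test whether such factors change more often than other genes. The paper had already reported *Tbx21*, *Eomes*, and *Prdm1* RNA as upregulated in HDAC1cKO-HDAC2HET cells. For activated HDAC1cKO cells it reported more EOMES and T-bet protein than in activated WT cells. The gene lists further below were likewise chosen with earlier results known. With 4 against 4 samples the exact permutation test gave its smallest possible p of 0.0286 (2-sided) for each of the 8.

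In the second comparison, HDAC1cKO with WT cells after restimulation, none of the 8 genes passed both thresholds. Across all genes, 0.0143% were called higher and 0.0643% lower. At an unadjusted limma p under 0.05 there were 3 of the 8, *Tbx21*, *Eomes*, and *Id2*, beside 14.2% of all genes. HDAC1cKO samples lay wholly above WT for 2 genes, *Tbx21* and *Eomes*, against 9.91% of all genes, and wholly below for 1, *Id2*, against 12.4%. The exact permutation test of 3 against 3 samples cannot go below 0.1, and those 3 genes reached it. Without WT restimulated replicate 2, *Eomes* alone of the 8 was called (log2 fold change 1.86, limma adjusted p = 0.0399), beside 25 of 13944 genes tested.

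**Figure D1:**
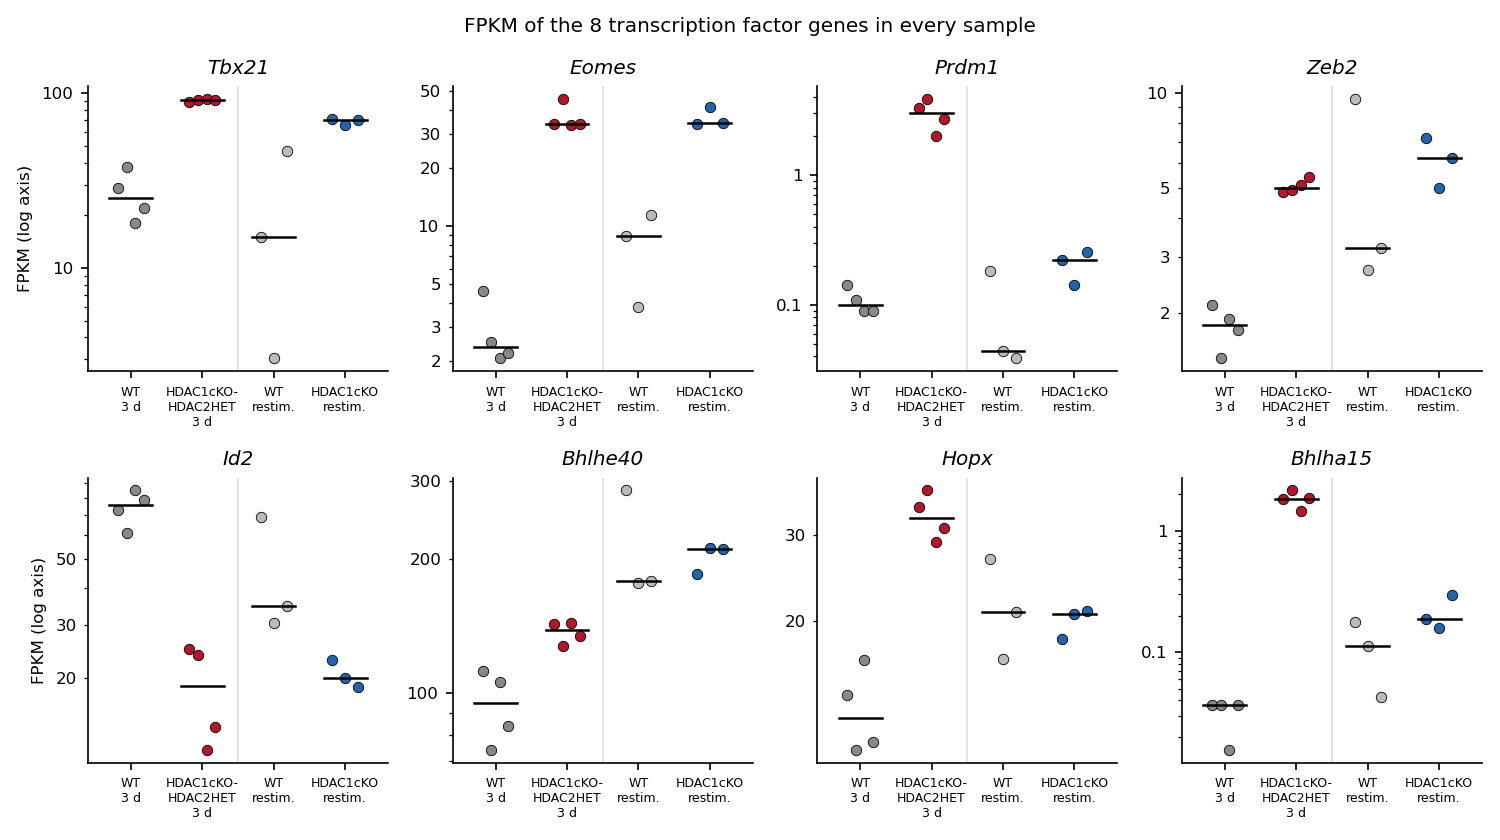
FPKM of each gene on a log axis, with 1 point per sample and a bar at the group median, for WT and HDAC1cKO-HDAC2HET samples after 3 days and for restimulated WT and HDAC1cKO samples. In the first experiment the groups are apart for all 8 genes, whereas in the second they are apart for *Tbx21*, *Eomes*, and *Id2* and overlap for the other 5.

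*Tbx21*, which encodes the factor that defines Th1 cells, is at chr11:97098071-97115331 on the minus strand. It was at 28.6, 37.8, 18.2, and 22.1 FPKM in the WT samples and at 88.8, 91.3, 93.0, and 92.3 in the HDAC1cKO-HDAC2HET samples. The groups were far apart, and the 4 mutant samples were nearly alike, with a coefficient of variation of 2.01% beside 32.3% in WT. Its log2 fold change was 1.83 (SE 0.205, n = 4 per group, limma adjusted p = 1.81e-04). After restimulation it was at 15.0, 3.04, and 46.5 in WT and at 70.9, 66.0, and 70.7 in HDAC1cKO samples. Every HDAC1cKO sample exceeded every WT sample, but the WT samples spread widely and replicate 2, the one without *Xist*, was the lowest. The log2 fold change of 2.41 had a 95% interval from 0.16 to 4.66 and did not pass the adjustment (limma adjusted p = 0.33). It was 1.38 without WT restimulated replicate 2 and 3.33 without replicate 3. With sex as a covariate, that is against WT replicate 2 alone, it was 4.46.

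*Eomes*, the second T-box factor, is at chr9:118478212-118486132 on the plus strand, where it overlaps the antisense gene *Gm33460*. It was at 4.60, 2.50, 2.06, and 2.198 FPKM in WT and at 34.0, 45.7, 33.5, and 33.8 in HDAC1cKO-HDAC2HET samples. The mean rose 12.9-fold, from 2.84 to 36.8 FPKM, and took *Eomes* from above 39.3% to above 82.4% of the genes tested. The log2 fold change was 3.71 (SE 0.249, n = 4, limma adjusted p = 1.47e-05). In the second experiment it was at 8.83, 3.79, and 11.4 in WT and at 34.0, 41.6, and 34.5 in HDAC1cKO samples. Although the libraries of the 2 experiments were quantified apart, the mutant values cover nearly the same range, and the restimulated WT values lie above most values of WT cells not restimulated. The log2 fold change of 2.31 (95% interval 1.35 to 3.28) had a limma adjusted p of 0.148, although its interval does not include 0.

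The ratio of *Eomes* to *Tbx21*, both per transcript length, was between 0.0661 and 0.161 in WT and between 0.361 and 0.5 in HDAC1cKO-HDAC2HET samples. *Eomes* therefore stayed below *Tbx21* in all 8 samples, by a smaller factor in the mutant. After restimulation the ratio was between 0.245 and 1.25 in WT and between 0.479 and 0.63 in HDAC1cKO samples, which overlap.

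*Prdm1*, at chr10:44437177-44528501 on the minus strand, was close to its detection limit in WT cells. The WT samples held 0.143, 0.110, 0.0889, and 0.0902 FPKM, which the bounds put at about 32.7, 20.7, 11.9, and 16.8 fragments. The HDAC1cKO-HDAC2HET samples held 3.26, 3.85, 2.00, and 2.69 FPKM, from about 199 to 638 fragments. The lowest mutant sample was thus far above the highest WT sample, and the mean was 27.3-fold higher. The log2 fold change on the scale of FPKM + 0.1, which understates changes of such low genes, was 3.84 (SE 0.206, n = 4, limma adjusted p = 5.58e-06).

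Restimulated WT samples held 0.181, 0.0437, and 0.0388 FPKM of *Prdm1*, and HDAC1cKO samples held 0.220, 0.142, and 0.254. In WT replicates 2 and 3 the lower Cufflinks bound was 0, and the groups overlap through WT replicate 1. The bounds put these values at about 1.0 and 0.6 fragments. That is not a count, since for a gene with several transcripts the bounds also hold uncertainty of assignment. The difference of 0.76 on the log2 scale (95% interval -0.21 to 1.74) was not called, and the mutant mean of 0.206 FPKM was above 9.74% of the genes tested. All 3 HDAC1cKO samples were below the lowest HDAC1cKO-HDAC2HET sample, on loci that were assembled differently in the experiments.

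*Bhlha15*, the bHLH factor of secretory cells, is at chr5:144190286-144194441 on the plus strand. It was at 0.0369, 0.0369, 0.0157, and 0.0363 FPKM in WT, or about 7.0, 6.0, 2.0, and 6.0 fragments. It was at 1.82, 2.15, 1.45, and 1.87 in HDAC1cKO-HDAC2HET samples, from about 120.0 to 347 fragments. The gene was thus barely transcribed in WT and plainly detected in every mutant sample, and the ratio of the means, 58.0, was the largest among the 8. The log2 fold change of FPKM + 0.1 was 3.86 (SE 0.149, n = 4, limma adjusted p = 1.68e-06). By p it ranked 98 among the genes tested, where it stood only because its mutant samples lifted it over the filter. The pseudocount sets the size: with 1 in place of 0.1 the change was 1.45 for *Bhlha15* and 1.81 for *Prdm1*, below the 3.33 of *Eomes*, and with 0.01 it was 5.50 and 4.63. In the second experiment *Bhlha15* was at 0.178, 0.113, and 0.0427 in WT and at 0.189, 0.159, and 0.296 in HDAC1cKO samples, a log2 difference of 0.60 (95% interval -0.31 to 1.51) that was 0.35 without WT replicate 3. Those groups overlap, and the highest HDAC1cKO sample is below the lowest HDAC1cKO-HDAC2HET sample.

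Both *Prdm1* and *Bhlha15* are known from plasma cells, so the markers of that lineage are given beside them. *Sdc1*, *Jchain*, and *Tnfrsf17* together summed to between 1.46 and 2.34 FPKM in WT and between 7.38 and 9.28 in HDAC1cKO-HDAC2HET samples. Nearly all of it was *Sdc1*, and *Jchain* averaged 0.0192 and 0.0224 FPKM while *Tnfrsf17* was listed at 0 in all 8 samples. Of the B cell markers, *Cd79b* was between 0.203 and 0.376 FPKM in WT and between 2.12 and 3.26 in the mutant, while *Cd79a* and *Ms4a1* had means below 1 FPKM in both groups and no value was matched for *Pax5*. *Cd8a* and *Cd8b1* summed to between 3.28 and 5.96 in WT and between 11.7 and 15.2 in the mutant, and *Ncr1* of NK cells was at most 0.0155 in any of these samples. The 4 myeloid and 2 dendritic cell markers with a value summed to at most 0.387 and 0.107 FPKM in any sample. After restimulation the summed plasma cell markers overlapped between groups, though *Sdc1* and *Jchain* did not, in opposite directions. *Sdc1* was between 2.87 and 3.90 FPKM in WT and between 3.92 and 6.52 in HDAC1cKO samples. *Jchain* was between 0.0625 and 0.288 in WT and at most 0.0218 in HDAC1cKO samples. *Cd79b* was between 0.304 and 0.483 in WT and between 0.511 and 0.778 in HDAC1cKO samples, and the other B cell markers with a value overlapped. *Cd8a* and *Cd8b1* summed to between 3.8 and 4.86 in WT and between 6.52 and 7.3 in HDAC1cKO samples. By the study's methods, cells with B220, CD8α, NK1.1, CD11b, or CD11c were depleted before culture and naive CD4+ cells sorted. For the restimulated cells the paper refers to an earlier study. The part of *Cd79b*-, *Sdc1*-, or *Cd8b1*-expressing cells in the changes of the 8 genes was not tested. In bulk samples, fewer cells of a type and less RNA per cell cannot be told apart.

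*Zeb2*, a repressor that acts downstream of T-bet in terminal effector cells, is at chr2:44983632-45117395 on the minus strand, where it overlaps *Zeb2os* and other genes. It was at 2.12, 1.43, 1.91, and 1.76 FPKM in WT and at 4.83, 4.90, 5.10, and 5.39 in HDAC1cKO-HDAC2HET samples. The mutant samples agreed closely and lay above all WT samples, with a log2 fold change of 1.45 (SE 0.114, n = 4, limma adjusted p = 3.09e-05). In the second experiment WT samples were at 9.56, 2.74, and 3.22 and HDAC1cKO samples at 7.21, 4.99, and 6.20. All 3 HDAC1cKO values lay between the WT extremes, and the log2 difference was 0.45 (95% interval -0.71 to 1.62). Its size moved with the WT samples: it was 1.00 without WT replicate 1, 0.12 without replicate 2, and 0.23 without replicate 3, and in none of these was it called. With the sex covariate, that is against WT replicate 2 alone, it was 1.12.

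*Id2*, at chr12:25093799-25097140 on the minus strand, went the other way. It was at 72.7, 61.2, 84.7, and 78.8 FPKM in WT and at 25.1, 23.9, 11.5, and 13.7 in HDAC1cKO-HDAC2HET samples. The highest mutant sample was below the lowest WT sample, and the log2 fold change was -2.07 (SE 0.266, n = 4, limma adjusted p = 3.73e-04). In the second experiment it was at 69.3, 30.5, and 34.7 in WT and at 22.9, 20.1, and 18.7 in HDAC1cKO samples. The HDAC1cKO samples again lay below all WT samples, by -1.03 on the log2 scale (95% interval -1.79 to -0.26), but the limma adjusted p was 0.255. Without WT restimulated replicate 1 it was -0.66, and with the sex covariate, that is against WT restimulated replicate 2 alone, -0.57. The mutant means of the 2 experiments were 18.6 ± 6.92 (SD, n = 4) and 20.6 ± 2.15 FPKM (SD, n = 3).

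*Bhlhe40*, which represses *Il10* and supports cytokine production in T cells, is at chr6:108660629-108666925 on the plus strand and overlaps *0610040F04Rik*. It was the most abundant of the 8 in every group. It was at 112, 74.3, 106, and 84.0 FPKM in WT and at 143, 127, 144, and 134 in HDAC1cKO-HDAC2HET samples. The shift was small but complete, with a log2 fold change of 0.56 (SE 0.131, n = 4, limma adjusted p = 0.00781). After restimulation it was at 286, 177, and 178 in WT and at 185.3, 212, and 211 in HDAC1cKO samples. The groups overlapped, and the log2 difference of -0.04 had a 95% interval from -0.53 to 0.45.

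*Hopx*, a homeodomain protein without DNA binding that is found in Th1 effector memory cells, is at chr5:77086988-77115121 on the minus strand and overlaps the antisense gene *Hopxos*. It was at 14.1, 10.9, 16.7, and 11.3 FPKM in WT and at 34.2, 37.0, 29.0, and 31.0 in HDAC1cKO-HDAC2HET samples, which did not overlap. It rose by a log2 fold change of 1.32 (SE 0.145, n = 4, limma adjusted p = 1.66e-04). In the second experiment it was at 26.8, 16.7, and 20.9 in WT and at 18.4, 20.6, and 21.0 in HDAC1cKO samples. All HDAC1cKO values lay within the WT range, and the 95% interval of the log2 difference, -0.51 to 0.36, does not reach a 2-fold change in either direction.

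**Figure D2:**
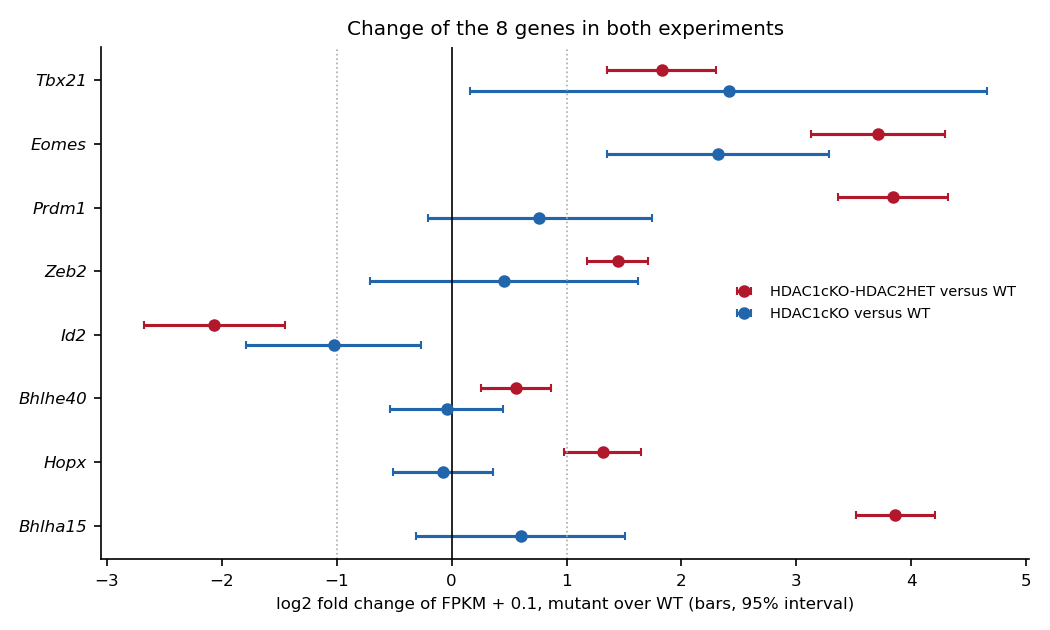
Log2 fold change of FPKM + 0.1, mutant over WT, with its 95% interval from limma, for each gene in HDAC1cKO-HDAC2HET cells after 3 days and in restimulated HDAC1cKO cells. The intervals of the first comparison are all clear of 0, and in the second those of *Tbx21*, *Eomes*, and *Id2* are.

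The difference between the 2 log2 fold changes was tested in 1 fit over all 14 samples. Of the 8 genes, 3 passed an adjusted p of at most 0.05, against 15.7% of the 12346 genes tested. These were *Bhlha15* (difference 3.26, SE 0.341, limma adjusted p = 1.57e-04), *Prdm1* (3.08, SE 0.401, limma adjusted p = 5.07e-04), and *Hopx* (1.39, SE 0.238, limma adjusted p = 0.00252). In each the change in HDAC1cKO-HDAC2HET cells was the higher one. *Bhlha15* in the first experiment and *Prdm1* in the second (WT mean 0.0879 FPKM) passed the filter on low values only through the mutant samples. The *Prdm1* value compares unlike assembled loci, since those of the 2 experiments share 0.236 of their joint span: the locus ended at 44458748 in the first experiment and at 44528501 in the second.

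For the other 5 genes the difference was not called. That of *Eomes* was 1.40 (95% interval 0.36 to 2.44, limma adjusted p = 0.0682) and that of *Id2* was -1.04 (-1.99 to -0.09, limma adjusted p = 0.132). *Zeb2* differed by 0.99 (-0.02 to 2.01), *Bhlhe40* by 0.60 (0.07 to 1.13), and *Tbx21* by -0.58 (-2.54 to 1.38). The *Tbx21* value turned to 0.44 without WT restimulated replicate 2, and with sex as a covariate it was -2.64 (limma adjusted p = 0.0158). With that covariate the *Eomes* difference was 0.48 and that of *Zeb2* was 0.33. Without WT restimulated replicate 1 the *Zeb2* difference was 0.44. *Eomes* was called without WT restimulated replicate 2 (1.86, limma adjusted p = 0.00661) or without WT 3-day replicate 1 (1.65, limma adjusted p = 0.0283), and *Id2* without WT restimulated replicate 1 (-1.40, limma adjusted p = 0.0241). The second *Hdac2* allele, restimulation, and the experiment changed together, and sex was unbalanced, so their parts in any difference cannot be told apart.

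The order of the levels changed with genotype. In WT cells after 3 days the means ran from *Bhlhe40* (94.0 FPKM) over *Id2* (74.3), *Tbx21* (26.7), *Hopx* (13.2), *Eomes* (2.84), *Zeb2* (1.81), and *Prdm1* (0.108) to *Bhlha15* (0.0314). The ranges of *Bhlhe40* and *Id2* overlapped, as did those of *Eomes* and *Zeb2*. In HDAC1cKO-HDAC2HET cells the order was *Bhlhe40* (137), *Tbx21* (91.3), *Eomes* (36.8), *Hopx* (32.8), *Id2* (18.6), *Zeb2* (5.06), *Prdm1* (2.95), and *Bhlha15* (1.82). *Id2* fell from the second to the fifth place, and the ranges of *Eomes* and *Hopx*, and of *Prdm1* and *Bhlha15*, overlapped.

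Genes that T-bet or Eomes are known to activate moved in both directions. Of 17 such genes 12 were tested in the first comparison, and 6 were called higher and 2 lower (*Il18r1* and *Il18rap*), beside 5.6% higher and 5.59% lower of all genes, and the list had a median log2 fold change of 0.86 beside -0.04 for all genes. *Ifng*, the Th1 cytokine, rose from between 0.608 and 1.52 to between 67.7 and 100.1 FPKM (log2 fold change 6.31, SE 0.249). *Prf1*, encoding perforin, rose from between 0.24 and 0.367 to between 16.9 and 21.4 (5.64, SE 0.116). *Gzmb*, encoding granzyme B, rose from between 15.6 and 30.1 to between 485 and 872 (4.89, SE 0.237). In the second comparison 0 of 14 tested genes were called by limma, and 9 had an unadjusted p under 0.05, beside 14.2% of all genes. There *Ifng* was between 0.457 and 4.01 FPKM in WT and between 42.5 and 95.3 in HDAC1cKO samples, without overlap (5.42, SE 0.747, limma adjusted p = 0.114).

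Genes that Blimp-1 is known to repress moved in both directions as well: of 11 tested in the first comparison 3 were called lower (*Il2*, *Id3*, and *Bcl6*) and 1 (*Spib*) higher, beside 5.59% and 5.6% of all genes, and the list had a median log2 fold change of -0.18. *Il2* was between 46.5 and 78.5 FPKM in WT and between 10.2 and 22.6 in HDAC1cKO-HDAC2HET samples (-2.02, SE 0.266). *Bcl6*, the partner that Blimp-1 opposes, was between 1.84 and 2.07 in WT and between 0.582 and 0.792 in the mutant (-1.37, SE 0.103). The ratio of *Prdm1* to *Bcl6* was between 0.0436 and 0.0726 in WT and between 2.53 and 5.28 in HDAC1cKO-HDAC2HET samples, so *Prdm1* passed *Bcl6* in every mutant sample. In restimulated cells the ratio was between 0.00734 and 0.045 in WT and between 0.0361 and 0.0692 in HDAC1cKO samples. In WT replicates 2 and 3 it rests on *Prdm1* values whose lower bound was 0, and the *Prdm1* loci of the 2 experiments are unlike. There 0 of 11 genes of the list were called by limma, with 2 at an unadjusted p under 0.05, a share close to the 14.2% of all genes.

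Among relatives and partners of the 8 factors, *Id2* was not alone in falling. Of 11 tested 2 were called lower and 0 higher, beside 5.59% and 5.6% of all genes, and both were Id genes, which like Id2 bind E proteins. *Id1* was between 3.39 and 4.73 FPKM in WT and between 0.203 and 0.697 in HDAC1cKO-HDAC2HET samples (-2.99, SE 0.308). *Id3* was between 82.9 and 92.1 in WT and between 19.3 and 28.7 in the mutant (-1.88, SE 0.11). The ratio of *Id2* to *Id3* therefore overlapped, between 0.665 and 0.957 in WT and between 0.402 and 1.24 in the mutant. *Zeb1*, the relative of *Zeb2*, was between 6.43 and 6.74 in WT and between 5.03 and 5.42 in the mutant, a log2 change of -0.31. The ratio of *Zeb2* to *Zeb1* accordingly moved from between 0.223 and 0.318 to between 0.908 and 1.07. *Tbr1*, *Zfp683*, and *Bhlhe41*, close relatives of *Eomes*, *Prdm1*, and *Bhlhe40*, were too low to be tested. In the second comparison 0 of 11 were called by limma, and 2 had an unadjusted p under 0.05, again near the 14.2% of all genes.

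**Figure D3:**
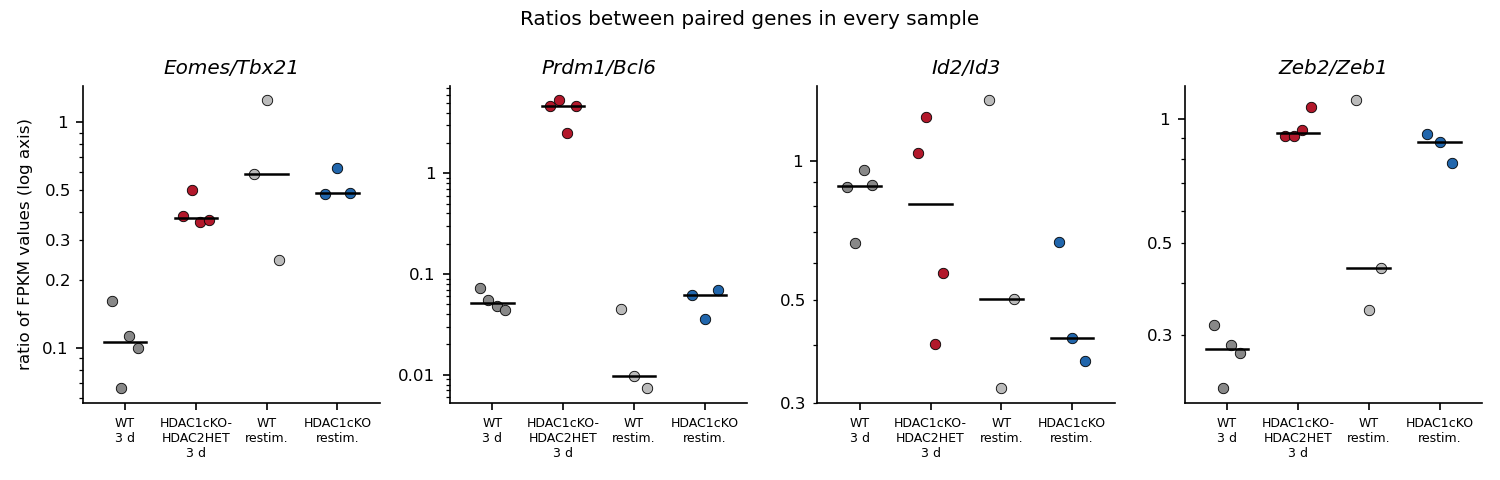
Ratios of FPKM values between paired genes in every sample on a log axis, with bars at the group medians. In HDAC1cKO-HDAC2HET samples the *Prdm1* to *Bcl6* ratio is between 2.53 and 5.28 and above that of all other groups, whereas the *Id2* to *Id3* ratio overlaps with that of WT.

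Genes of the secretory pathway, with which *Bhlha15* and Xbp1 are linked, were called higher in 2 and lower in 1 of 8 tested in the first comparison, beside 5.6% and 5.59% of all genes, and the list had a median log2 fold change of 0.60. *Fkbp11*, a peptidyl-prolyl isomerase of the endoplasmic reticulum, rose from between 0.736 and 1.23 to between 14.1 and 20.6 FPKM (3.96, SE 0.168). *Creld2* rose from between 31.5 and 33.0 to between 60.3 and 68.4 (1.00, SE 0.0409), whereas *Derl3* fell from between 2.04 and 2.59 to between 0.308 and 0.53 (-2.29, SE 0.16). *Xbp1* was between 65.8 and 73.8 in WT and between 112.0 and 128 in the mutant, a change under 2-fold (0.78, limma adjusted p = 1.60e-05). In the second comparison 0 of 8 were called by limma, and 4 had an unadjusted p under 0.05 beside 14.2% of all genes. There *Derl3* was between 2.11 and 4.05 in WT and between 0.312 and 0.701 in HDAC1cKO samples (-2.30, limma adjusted p = 0.134). *Fkbp11* went the other way, between 1.09 and 1.15 in WT and between 3.06 and 4.84 in HDAC1cKO samples (1.71, limma adjusted p = 0.0627).

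**Figure D4:**
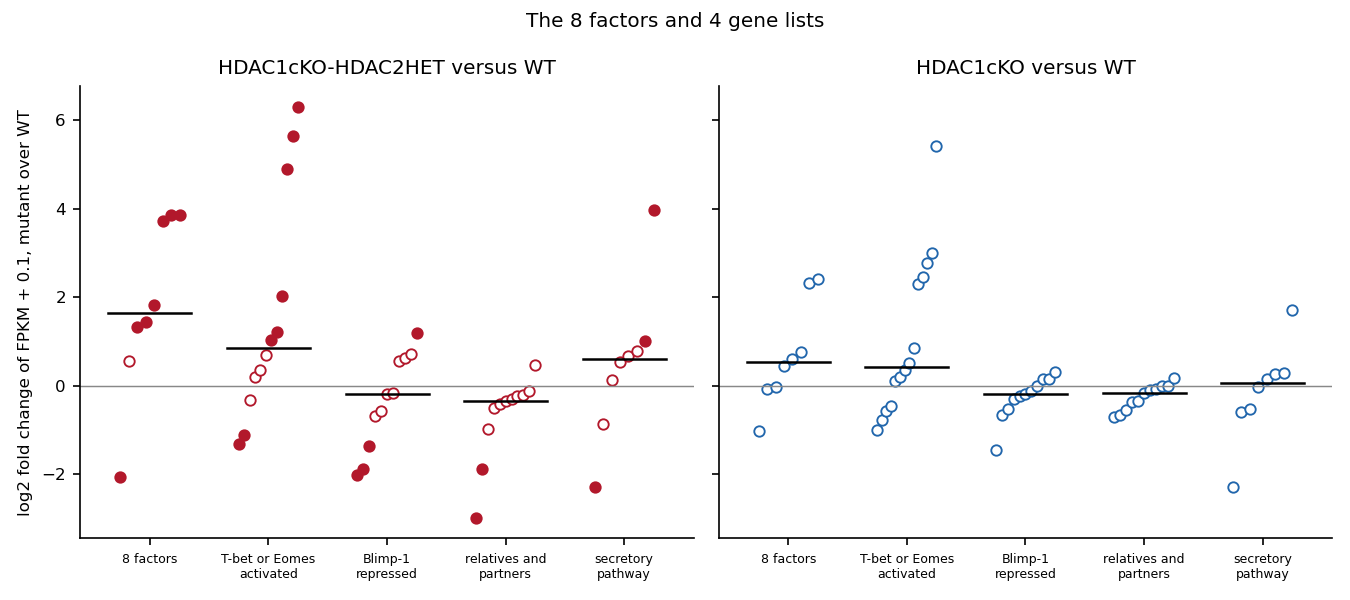
Log2 fold change of FPKM + 0.1, mutant over WT, for the 8 factors and the 4 gene lists, with filled points for genes called at both thresholds and bars at the medians. In HDAC1cKO-HDAC2HET cells called genes stand in each column, and in HDAC1cKO cells there are none.

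The genes most like each factor were sought among 9542 genes with a mean of at least 1 FPKM in both experiments, by Pearson's r of log2(FPKM + 0.1) over the 14 samples. The samples fall into 4 groups, which set most of each r, so the values are a description. For *Tbx21* they were *Gm12185* (0.984), *F830016B08Rik* (0.981), and *Ly6a* (0.972), and for *Eomes* *Gm26819* (0.978), *Dok1* (0.973), and *Sugt1* (0.973). For *Prdm1* they were *Anxa6* (0.986), *Cdc16* (0.983), and *Kremen1* (0.982), and for *Bhlha15* *Unc119b* (0.988), *Klhl21* (0.984), and *Epb41* (0.983). *Zeb2* was most like *Sik3* (0.975), *Mlkl* (0.973), and *Yars* (0.966), and *Id2* most like *Errfi1* (0.954), *St6gal1* (0.948), and *Rasa1* (0.948). *Bhlhe40* was most like *Laptm4b* (0.973), *Gadd45b* (0.97), and *Reps1* (0.968), and *Hopx* most like *Satb1* (0.942), *Ctsl* (0.941), and *Grina* (0.941).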

How the data were processed

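RNA-Seq was done on activated mouse CD4+ T cells from 2 experiments, grouped and numbered by their labels. Per the paper's methods, the authors mapped the reads to mm10 with TopHat and assembled and quantified each library with Cufflinks; the submitters' processing notes instead name STAR 2.5.2b, Subread 1.5.1, and edgeR, but the deposited FPKM files have the Cufflinks layout. The deposited values are FPKM with confidence bounds, which are relative to transcript length and mapped fragments; count tables were not used here. Loci without a name were matched to GENCODE genes or transcripts on GRCm38 where they shared at least 0.8 of the joint span. *Eomes*, *Prdm1*, and *Zeb2* were matched in all 14 samples, *Id2* was named in all 14, and the other 4 were mixed. Strand use in quantification is not given in the sources used here, so overlapping genes may share reads.

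Fragment numbers were recovered from the bounds: between 83.7% and 88.8% of low single-transcript genes gave a whole number within 0.05. Fragments of genes with several transcripts are approximate, since the bounds then also hold uncertainty of assignment. Separate limma fits were made for the experiments (version 3.58.1, R 4.3.3) on the log2 of FPKM plus a pseudocount of 0.1. Variances followed the mean level, low genes (mean FPKM below 0.1 over both genotypes) were left out, and p was adjusted by Benjamini-Hochberg over the rest. Genes were called at an adjusted p of at most 0.05 and a fold change of at least 2. The difference between fold changes was a contrast over all 14 samples. Each of the 8 genes also had an exact permutation test, 2-sided, with 70 or 20 arrangements. The fits were tested on simulated data with known 4-fold changes. They recovered 153 of 185 in the first comparison, 136 of 192 in the second, and 157 of 197 for the difference. False calls numbered 5, 8, and 15.

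The 8 genes, the gene lists, and the cell type markers were chosen with earlier results of these data known, and 1 marker is not reported here. The rule named all 8 genes, the 3 largest called changes of each list in the first comparison plus relatives of the 8 genes, and the 3 genes with the highest r to each factor; the called genes *Il18r1*, *Il18rap*, and *Spib* were named after their values were seen. Motifs were likewise searched after the values were seen. Alternatives changed the pseudocount (1 and 0.01), filter, scaling, trend, sample weights, replicate block, sex covariate, samples, locus matching, and joint fit. Tables and figures were made with pandas 2.3.3, numpy 2.4.6, scipy 1.17.1, and matplotlib 3.10.9.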

Additional observations from a re-analysis of the deposited data

Results flagged for a closer look

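The change of *Prdm1* differed between the 2 experiments by 3.08 on the log2 scale, that of *Hopx* by 1.39, and that of *Bhlha15* by 3.26, each by the limma contrast over all 14 samples. The *Prdm1* value rests on unlike loci in the 2 experiments. In HDAC1cKO-HDAC2HET cells, the highest *Eomes* sample (replicate 2, 45.7 FPKM) lay apart from the other 3, which were between 33.5 and 34.0. In WT cells after 3 days, the lowest *Bhlha15* sample (replicate 3, 0.0157 FPKM, about 2.0 fragments) lay apart from the other 3, which were between 0.0363 and 0.0369. Of 16 groups of 4 samples looked at, 2 held such a sample, and chance gives about 1 in 20.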

How the results depend on the processing

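In HDAC1cKO-HDAC2HET versus WT, 7 genes were called as reported and under each alternative except the filter at a mean FPKM of at least 1, which leaves out *Bhlha15* and gave 6, and the restriction to named rows. Each of the 161 recomputed fold changes of single genes kept its direction and its side of the threshold, though with a pseudocount of 1 or 0.01 *Bhlha15* was at 1.45 or 5.50 and *Prdm1* at 1.81 or 4.63. With rows named in every sample only, *Id2* and *Bhlhe40* could be tested and 1 was called, because the other genes were left out. Leaving out 1 sample gave 7 to 7 genes called. The count in HDAC1cKO versus WT, 0, became 2 in 1 fit of all 14 samples (*Tbx21*, limma adjusted p = 0.0427, and *Eomes*, limma adjusted p = 0.00316). That fit, which also used the spread of the first experiment, called 275 of 12346 genes, beside 11 of 14000 as reported. Leaving out 1 sample gave 0 to 1 genes called in HDAC1cKO versus WT. With a sex covariate, that is against WT restimulated replicate 2 alone, the log2 fold change of *Eomes* in this comparison was 3.23. *Bhlhe40* turned to 0.12 with sample weights, 0.19 with the sex covariate, 0.19 without WT restimulated replicate 1, and 0.02 without HDAC1cKO replicate 1, with a range from -0.16 to 0.19 when 1 sample was left out. *Hopx* turned to 0.058 with sample weights, 0.26 with the sex covariate, and 0.10 without WT restimulated replicate 1, with a range from -0.24 to 0.10. For the difference, 3 genes were called as reported, 1 with a mean FPKM of at least 1 (which removes *Prdm1* and *Bhlha15*), 0 with named rows only (which leaves *Id2*), and 3 to 4 when 1 sample was left out. The *Tbx21* difference turned to 0.44 without WT restimulated replicate 2 and was -1.50 without replicate 3, its range when 1 sample was left out. With a replicate block, 7, 0, and 3 genes were called as without it. Same-numbered samples did not deviate together (correlations between -0.0134 and 0.0425), so the numbers are not taken as pairs. A sex covariate could not be fitted in the first experiment, where all samples expressed *Xist*, at lower levels in the mutant. With 3 samples per group and unbalanced sex, the second experiment can miss changes, and values under about 0.2 FPKM rest on few fragments.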

Other observations

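Within the HDAC1cKO-HDAC2HET group, *Id2*, *Prdm1*, and *Hopx* were each higher in replicates 1 and 2 than in replicates 3 and 4. *Id2* was at 25.1 and 23.9 against 11.5 and 13.7 FPKM, *Prdm1* at 3.26 and 3.85 against 2.00 and 2.69, and *Hopx* at 34.2 and 37.0 against 29.0 and 31.0. *Eomes* had the same order, at 34.0 and 45.7 against 33.5 and 33.8, though only replicate 2 lay apart. *Zeb2* was ordered the other way, at 4.83 and 4.90 against 5.10 and 5.39, as was *Tbx21*, at 88.8 and 91.3 against 93.0 and 92.3. In the restimulated WT group, replicate 1 held the highest value of 6 of the 8 genes, all but *Tbx21* and *Eomes*, which were highest in replicate 3. These patterns were noticed in the values and were not tested.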
